A study of Caenorhabditis elegans with 2 samples.

Results

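The genes described here encode the machinery that removes introns from pre-mRNA in Caenorhabditis elegans. They were chosen by name, as 32 core spliceosome and SR (serine/arginine-rich) protein genes, and 30 of them were found among the 19985 protein-coding genes of the WBcel235 annotation. The names sap-1 and sap-114 had no match there and were not analysed. The 30 genes were 8 SR protein genes (rsp-1 to rsp-8), 7 Sm protein genes (snr-1 to snr-7), 3 genes of the U5 particle (prp-8, prp-6, snrp-200), 3 of the SF3 complex of the U2 particle (sap-49, sftb-1, prp-21), 3 of the U4/U6 particle (prp-3, prp-4, prp-31), 3 for U1 or U2 RNA-binding proteins (rnp-2, rnp-3, rnp-7), the U2AF pair uaf-1 and uaf-2, and prp-19.

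The measurement was chromatin immunoprecipitation with sequencing (ChIP-seq) for AMA-1, the largest polypeptide of RNA polymerase II. Whole young adult worms of mixed sex were used. All worms were strain YL489, genotype unc-119(ed3) III; vrIs104, whose transgene expresses AMA-1 with a GFP and FLAG tag from the germline promoter of pie-1, with the puf-5 3′ untranslated region (UTR) and an unc-119(+) marker. There were 2 biological replicates of this 1 group, no second condition, and a control experiment that is named in the labels but not analysed here. The labels give AMA-1 as the antibody target without saying whether the tag or the untagged protein was bound, so germline polymerase and that of other tissues cannot be told apart.

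Splicing is carried out by small nuclear ribonucleoproteins (snRNPs), each built on a small nuclear RNA (snRNA). Sm proteins form a ring around the U1, U2, U4 and U5 snRNAs, U1 and U2AF recognise the ends of the intron, and the SF3 complex holds U2 on the branch site. The U4/U6 and U5 particles then join, and prp-8 and the snrp-200 helicase act in the active spliceosome. SR proteins bind exons and recruit these factors, and in several animals their own genes make alternative transcripts with early stop codons that are then degraded. Splicing occurs largely while polymerase is still on the gene. Many worm transcripts also receive a trans-spliced leader, so that an annotated 5′ end can lie downstream of the promoter.

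Regions in the deposited lists were ranked by the authors' signal value, 1 being the strongest. The optimal list held 887 reproducible peaks, which were the strongest 887 of 30000 pooled candidate regions. The separate lists held 28020 candidates for replicate 1 and 30000 for replicate 2. A region was assigned by its summit to the 5′ end of a gene (within 500 bp), to its 3′ end (within 500 bp), or to the body (inside the gene and over 500 bp from both ends). A gene shorter than 1000 bp can therefore have 1 summit counted at both ends. Every share below is a description, since genes are not replicates of a condition, and no test was made.

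The summit sequences below show where polymerase regions peaked upstream of 6 of these genes, all with their strongest 5′ region upstream of the gene and among the strongest 3000 pooled regions. The snr-2 gene also meets this and is not shown. Each run is 29 bases of the reference genome (WBcel235), 5′ to 3′ on the strand of the gene, and the capital marks the base at the summit. They come from chrIV:7791451-7791479 (minus strand) for rsp-6, chrII:10658919-10658947 (plus) for rsp-7, chrV:11980065-11980093 (minus) for snr-4, chrIII:8164079-8164107 (plus) for prp-8, chrII:5388987-5389015 (minus) for rsp-4 and chrII:11453155-11453183 (plus) for rsp-1, whose region is shared with rsp-2.
rsp-6: attgcaactgaaatTttcgttcgaattcg
rsp-7: acgggtctcgcagcGacaagatgttggca
snr-4: tcctataaaacacaGcaaccgacaaatcg
prp-8: tcgacacaattgcgCgcgttgtttagatt
rsp-4: gctaaagctttacgCtggattgcagttaa
rsp-1: gccacagagttataAaacgagaaacgcgc
The motif TATAAA, searched on both strands, was present in 2 of these 6 windows, those of snr-4 and rsp-1, and in 2.78% of windows of the same 29 bases at all 29971 nuclear pooled summits. The motif TTTTTTTT, also searched on both strands, was in 0 of the 6 windows and in 3.92% of all windows. The 6 windows were chosen as strong and upstream of a gene, whereas all windows include gene bodies, 3′ ends and weak regions. The shares are therefore not of like sets. The snr-4 summit was also 39 bp from an snRNA gene.

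Only rsp-6 and snr-6 held an optimal peak. That is 2 of 30 genes with a peak in any segment, against 4.54% of all protein-coding genes. At 5′ ends both were counted (6.67%, against 1.57% of all genes), at 3′ ends both again (6.67%, against 2.40%), and in bodies 0 of 30, against 0.971%. The counts of 2 are too small to set these shares apart. Taking instead the 887 strongest regions of replicate 1, 3 of 30 genes had one in any segment, against 4.37% of all genes, with 2 at the 5′ end (against 1.47%), 0 in the body (1.15%) and 1 at the 3′ end (2.24%). The same number of regions from replicate 2 gave 4 of 30 genes, against 4.34%, with 1 at the 5′ end (against 1.40%), 1 in the body (1.05%) and 3 at the 3′ end (2.32%).

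The rsp-6 gene (WBGene00004703), which encodes the worm counterpart of the vertebrate SR protein SRp20, had a separate optimal peak at each end. It lies on the minus strand of chromosome IV from 7789847 to 7791229. Its 5′ peak, chrIV:7791325-7791604, had a pooled signal of 43.5 and rank 627, with the summit 236 bp upstream of the start. That summit also lay 239 bp past the 3′ end of C33H5.13, the gene before it on the same strand.

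The replicates ranked the 2 ends of rsp-6 in opposite ways. The overlapping 5′ region had rank 261 in replicate 1 and 6565 in replicate 2. The 3′ peak, chrIV:7789759-7790038, had a pooled signal of 51.5 and rank 421, with the summit in the 3′ UTR, 52 bp before the end of the gene. The overlapping region had rank 22401 in replicate 1 and 160 in replicate 2. Replicate 1 also listed a region of rank 21240 or stronger in the 3′ window that did not overlap this peak. The 5′ peak was thus strong mainly in replicate 1, and the 3′ peak mainly in replicate 2. The next gene, imp-3, starts 286 bp beyond the 3′ summit, so that region was also counted at the 5′ end of imp-3.

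The snr-6 gene (WBGene00004919), which encodes the Sm protein SmE, has only 458 bp (chromosome III, 12429172 to 12429629, minus strand). Its 1 optimal peak, chrIII:12429056-12429335, was counted at both ends for that reason. The summit fell in the 3′ UTR, 24 bp before the 3′ end, with a signal of 39.1 and rank 804. The overlapping regions had rank 15901 in replicate 1, with a summit 240 bp away, and rank 425 in replicate 2. The summit of the optimal peak also lay 1 bp past the 3′ end of pie-1, the gene whose promoter drives the transgene. The signal therefore cannot be assigned to one of the pair. The pie-1 gene held further optimal peaks of rank 294, upstream, and rank 497, in an intron. What transgene copies add to the reads at these sites was not tested. A weaker pooled region of rank 2567 lay 308 bp upstream of snr-6 itself.

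**Figure D1:**
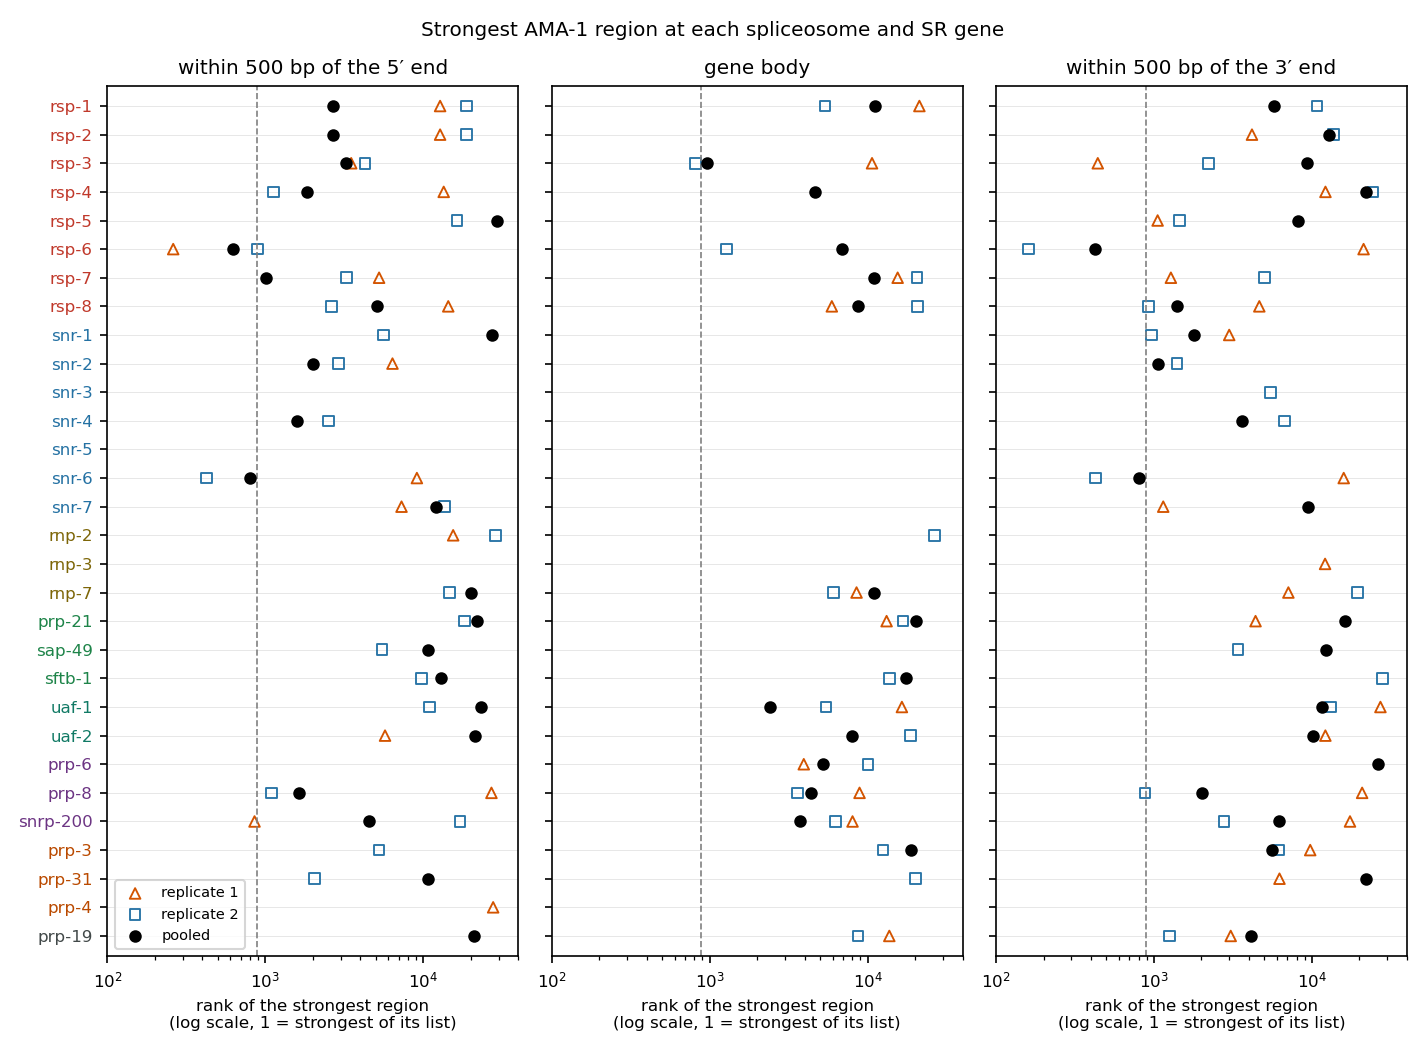
Rank of the strongest region of each gene (rows, coloured by subgroup; SR genes at the top) in 3 segments, on a log scale where 1 is the strongest of its list. Filled circles are the pooled list, triangles replicate 1, squares replicate 2, the dashed line marks rank 887 (the length of the optimal list), and a missing symbol means no listed region. Most SR genes have pooled circles left of rank 3000 in at least 1 segment, and the circles left of the dashed line belong to rsp-6 and snr-6.

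The pooled candidates reach far below the optimal list, and there the genes of the splicing machinery were listed more often than protein-coding genes in general. A pooled region lay at the 5′ end of 23 of 30 genes (76.7%), against 29.0% of all protein-coding genes. In the body it was 15 of 30 (50.0%), against 25.5%, and at the 3′ end 22 of 30 (73.3%), against 32.7%. In any segment 25 of 30 genes had a region (83.3%), against 46.3%.

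The same direction was seen in each replicate's own list. In replicate 1, 15 of 30 genes (50.0%) had a region at the 5′ end, against 27.7% of all genes. In replicate 2 it was 23 of 30 (76.7%), against 31.3%. At 3′ ends the counts were 20 of 30 (66.7%) against 31.1% in replicate 1, and 21 of 30 (70.0%) against 34.1% in replicate 2. The body counts were 11 of 30 (36.7%) against 26.8% in replicate 1, and 17 of 30 (56.7%) against 28.2% in replicate 2. The pooled list was made from the reads of both replicates, so it is not independent of them. Both replicates listed a region at the 5′ end of 13 of 30 genes (43.3%), against 16.0% of all genes, in the body of 11 (36.7%), against 17.9%, and at the 3′ end of 15 (50.0%), against 19.5%.

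In the pooled list the regions also ranked higher. Among the genes with a pooled region, the best rank in any segment had a median of 2682 in the splicing genes and 6656 in all protein-coding genes. The value of 2682 is the rank of the region shared by rsp-1 and rsp-2, which was counted for both genes. At the 5′ end the medians were 5111 and 10462, in the body 8020 and 11124, and at the 3′ end 7189.5 and 8976.5. In replicate 2 the medians were 5477 and 11732 at the 5′ end, 10079 and 11376 in the body, and 3398 and 9828 at the 3′ end. In replicate 1 they were 9106 and 11452 at the 5′ end and 6665.5 and 10201 at the 3′ end, but in the body 10666 in the splicing genes and 10530 in all genes. These medians cover only the genes with a listed region.

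Gene neighbourhood differed between the splicing genes and the rest, and it bears on what lies inside a 500 bp window. A divergent neighbour within 1000 bp upstream was present at 18 of 30 splicing genes (60.0%), against 17.5% of all protein-coding genes. With such a neighbour, 15 of 18 splicing genes (83.3%) had a pooled 5′ region, against 39.1% of all genes with one. With a same-strand neighbour within 500 bp upstream it was 4 of 6 (66.7%), against 43.8%, and with neither 4 of 6 (66.7%), against 22.1%. The direction was the same in all 3 kinds of neighbourhood, with only 6 splicing genes in each of the last pair. Overlapping genes and small RNA genes were not counted as neighbours. Among the 4 genes with a region and neither neighbour, the rsp-4 summit lay 172 bp before the 3′ end of ndx-6. That of snr-4 lay 39 bp from an snRNA gene. Whether neighbourhood accounts for the difference from all genes was not tested. Other features of the genes, such as expression, were not measured here.

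Chromosomes also differed. The 30 genes were spread over chromosomes I (4), II (9), III (10), IV (5) and V (2), with 0 on X, where 2731 of all protein-coding genes lie. Their lengths were close to the rest, with a median of 1969 bp against 2026 bp for all protein-coding genes.

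A cut at the strongest 3000 pooled regions, chosen after the values were seen, separated the subgroups more than the whole list did. In any segment 13 of 30 splicing genes (43.3%) had such a region, against 13.1% of all protein-coding genes. By subgroup it was 7 of 8 SR genes (87.5%), 4 of 7 Sm genes (57.1%), 1 of 3 U5 genes (33.3%) and 0 of 3 SF3 genes. Away from tRNA, snoRNA and snRNA genes (summit over 250 bp distant) it was 12 of 30 splicing genes (40%), against 11.6%. Without this distance limit, it was 9 of 30 at 5′ ends alone (30.0%), against 5.23%. At 3′ ends it was 6 of 30 (20.0%), against 7.15%, and in bodies 2 of 30 (6.67%), against 3.43%. In the counts for any segment and for 5′ ends, rsp-1 and rsp-2 both entered through the region that they share.

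**Figure D2:**
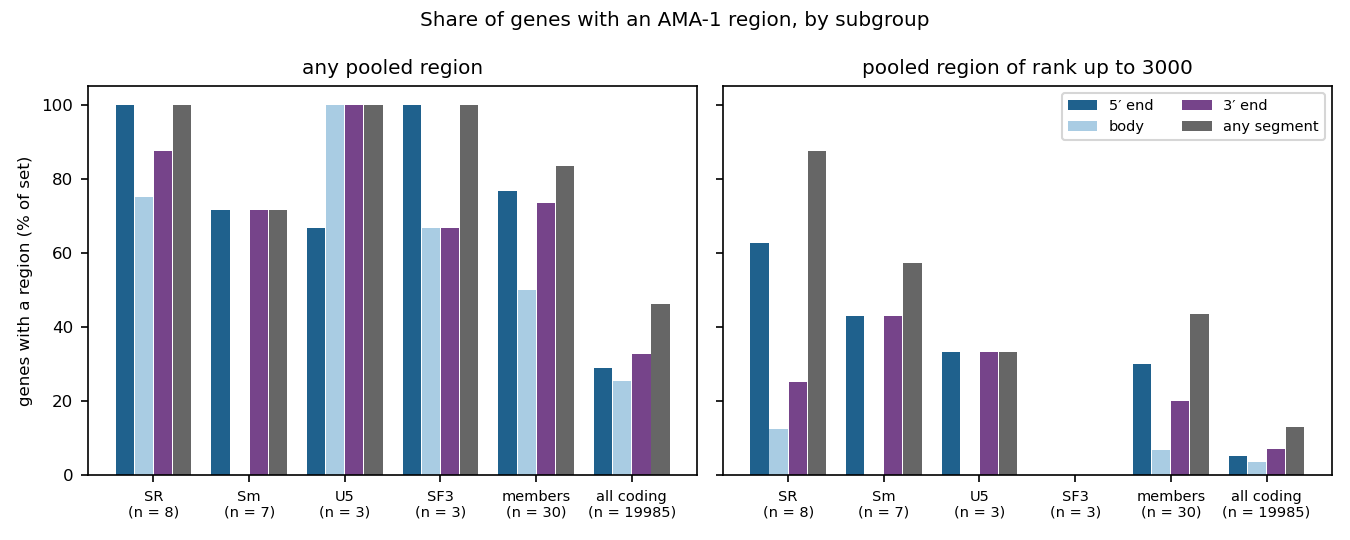
Percentage of genes with a pooled AMA-1 region (left) and with one of rank up to 3000 (right), by segment, for SR, Sm, U5 and SF3 genes, all 30 splicing genes (members) and all 19985 protein-coding genes. SR genes reach 87.5% in any segment on the right, where SF3 genes are at 0 and all protein-coding genes at 13.1%.

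All 8 SR genes had a pooled region at the 5′ end, 6 of 8 in the body and 7 of 8 at the 3′ end. Their best 5′ ranks in the pooled list had a median of 2682, against 10462 for all protein-coding genes. That value is the rank of the region shared by rsp-1 and rsp-2, which was counted for both genes throughout this paragraph. The replicates differed in the median. In replicate 2 the medians were 3771.5 for 8 SR genes and 11732 for all genes. In replicate 1 they were 12775 for 7 SR genes and 11452 for all genes, so SR 5′ regions did not rank higher there. The strongest pooled 5′ summit lay upstream of the start in 6 of 8 SR genes (75%), against 59.3% of all protein-coding genes with a pooled 5′ region. In replicate 1 it was 6 of 7 SR genes (85.7%), against 56.4%, and in replicate 2 it was 4 of 8 (50%), against 58.5%.

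After rsp-6, the strongest 5′ region of an SR gene was at rsp-7, with a signal of 35.9 and rank 1007, just below the end of the optimal list. Its summit lay 273 bp upstream of rsp-7 and 307 bp upstream of the divergent gene snu-13, which encodes a protein of the U4/U6 particle, and it had rank 5249 in replicate 1 and 3260 in replicate 2. The region therefore lies between 2 genes of the splicing machinery. At rsp-4, the counterpart of vertebrate SC35, the 5′ region had rank 1825 and its summit 165 bp upstream. The rank was 13464 in replicate 1 and 1124 in replicate 2. That summit also lay 172 bp before the 3′ end of ndx-6, so it cannot be assigned to rsp-4 alone.

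The genes rsp-1 and rsp-2 are divergent neighbours with 406 bp between them, and they shared 1 pooled region. Its rank was 2682, with the summit 193 bp upstream of rsp-1 and 214 bp upstream of rsp-2, near the middle of the gap. It had rank 12775 in replicate 1 and 18844 in replicate 2, weaker than its pooled rank in both. The other divergent pair among these genes, rsp-5 and snr-3 with 403 bp between them, held no pooled region in the gap. The only 5′ region of rsp-5 had rank 29341 with its summit 217 bp inside the gene, and snr-3 had none in the pooled list.

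At rsp-3, the counterpart of vertebrate SF2/ASF, the strongest pooled region was assigned to the body. It had a signal of 36.5 and rank 966, and its summit was 544 bp from the 3′ end, close to the limit of the 3′ window. The overlapping regions had rank 3544 in replicate 1, with a summit 98 bp away and inside the 3′ window, and rank 813 in replicate 2. In replicate 1 the strongest region of rsp-3 was instead at the 3′ end, at rank 441, and its only body region had rank 10666. The pooled summit, 1196 bp past the start, fell in a noncoding exon or UTR of 1 of 2 annotated transcripts and in an intron of the other. The 5′ region of rsp-3 was weaker, at rank 3252, with rank 3495 in replicate 1 and 9758 in replicate 2. Its pooled summit also lay 78 bp upstream of the divergent gene spin-4.

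Body regions of rsp-4 and rsp-6 lay at the same kind of place, but those of some other SR genes did not. The rsp-7 summit of rank 10911 was in an intron of all 3 transcripts. The rsp-8 summits lay in an intron or a coding exon of 1 transcript and outside the other. At rsp-1 the summit of rank 11132 was coding in 2 of 6 transcripts, and that of rank 15657 was in a noncoding exon or UTR of 1. At rsp-4 a body summit of rank 4641 fell in a noncoding exon or UTR of 2 of 3 transcripts and an intron of the other, with rank 16157 in replicate 1 and 3798 in replicate 2. At rsp-6 the body summit of rank 6898 likewise lay in noncoding exon or UTR in 2 of 3 transcripts and in an intron of the other. That region overlapped none in replicate 1 and had rank 1279 in replicate 2.

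Counting all 10 body summits of SR genes, 7 lay in exons (70.0%), where exons made up 48.0% of their body bases. For all 30 splicing genes it was 19 of 40 summits (47.5%), with 40% of body bases exonic, and for all protein-coding genes 34.1%, with 36.6%. In 5 of the 10 SR summits (50.0%) the base was exonic but coding in no annotated transcript. These 5 were the only such summits among the 40 in splicing genes (12.5%), and the share in all protein-coding genes was 3.78%. The share of body bases of this kind was not measured in either set, so these shares have no base share beside them. Both body summits of rsp-3 are among the 5. This category was chosen after the values were seen. Per kb of body, SR genes held 1.06 pooled summits, all 30 splicing genes 0.516 and all protein-coding genes 0.325.

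At 3′ ends, the strongest SR region after rsp-6 was at rsp-8, with a signal of 31.8 and rank 1398 and the summit in the 3′ UTR, 60 bp before the end. It had rank 16923 in replicate 1 and 924 in replicate 2. Its pooled summit also lay 98 bp past the 3′ end of ntl-3, a gene on the opposite strand. The 3′ region of rsp-5 was stronger in both replicates than in the pooled list, with pooled rank 8172, but rank 1055 in replicate 1 and 1448 in replicate 2. Its replicate summits lay 156 and 162 bp from the pooled summit. At rsp-7 no pooled region was assigned to the 3′ end, although replicate 1 listed one of rank 1280 there.

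**Figure D3:**
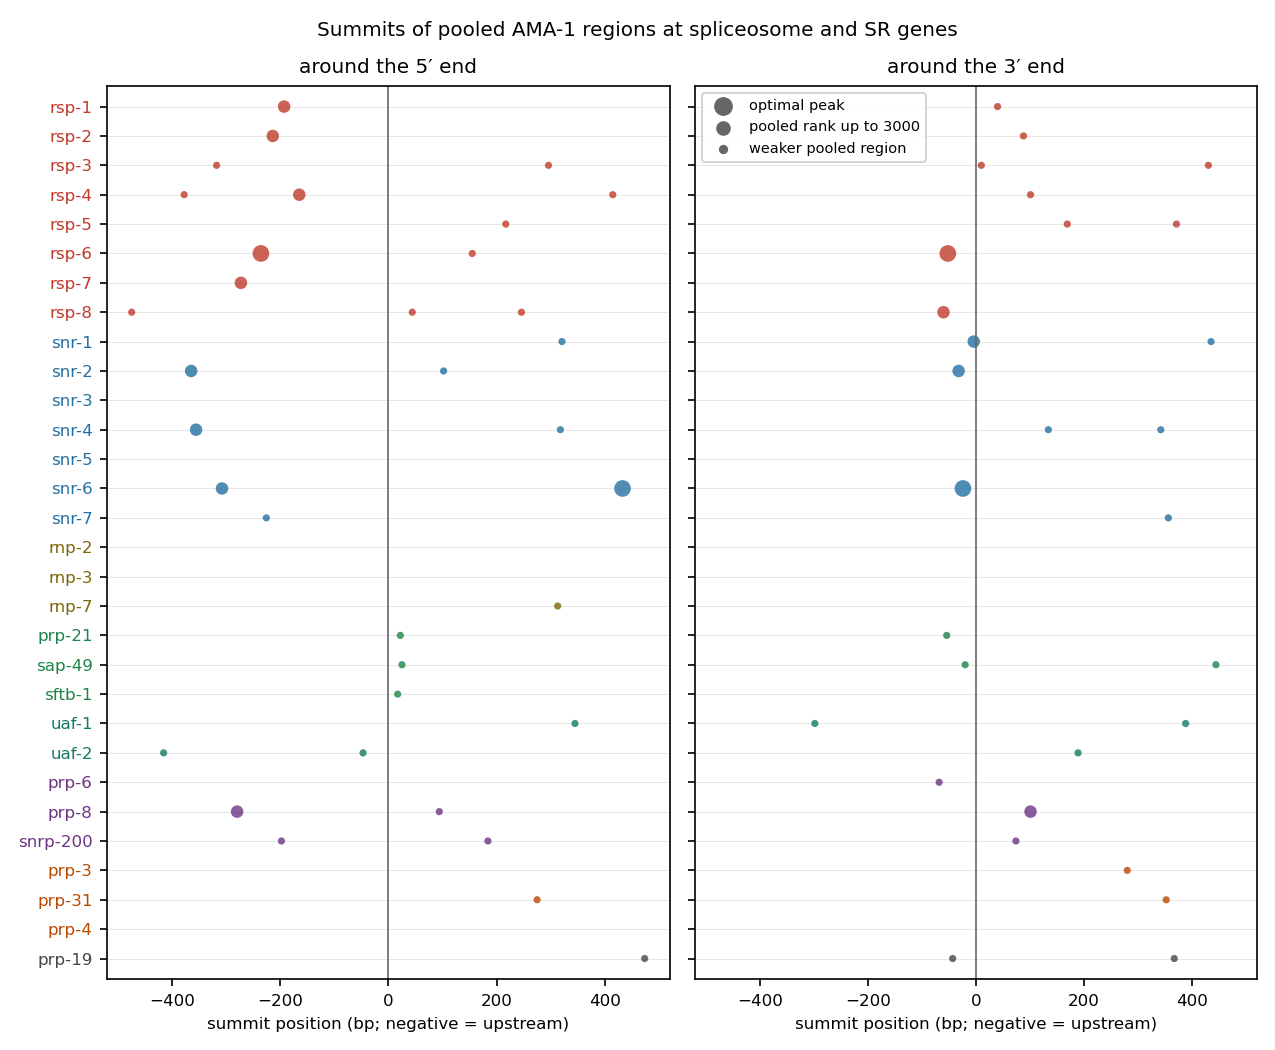
Summit positions of pooled regions relative to the 5′ end (left) and 3′ end (right) of each gene, in bp along the gene, with negative values upstream. Point size gives optimal peaks, pooled regions of rank up to 3000 and weaker ones. The larger points left of 0 in the 5′ panel lie 165 to 365 bp upstream, and the 5′ points of the SF3 genes prp-21, sap-49 and sftb-1 lie 17 to 25 bp downstream.

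Sm genes are short, with a median of 828 bp, and 1 of 7 is longer than 1000 bp, so they have almost no body in the sense used here and held 0 body regions. Of the 7, 5 had a pooled 5′ region and the same number a 3′ region. Their best 5′ ranks had a median of 1998 and their best 3′ ranks 1792, against 10462 and 8976.5 for all protein-coding genes. The single snr-6 summit beside the end of pie-1 enters both medians. In replicate 1 only 3 Sm genes had a region at each end, with medians of 7279 (5′) and 2996 (3′), against 11452 and 10201. In replicate 2 it was 5 at each end, with medians of 2897 and 1403, against 11732 and 9828.

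The snr-2 gene, which encodes SmB, had a region among the strongest 3000 at both ends. Its 3′ region had a signal of 35.0 and rank 1068, with the summit 32 bp before the end, in the 3′ UTR, and 135 bp upstream of the start of ola-1. It had rank 1403 in replicate 2, and no region of replicate 1 overlapped it. The 5′ region had rank 1998, 365 bp upstream of the start, with rank 6381 in replicate 1 and 2897 in replicate 2. The divergent gene W08E3.4 starts 101 bp from that summit.

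At snr-1, which encodes SmD3, the 3′ region had rank 1792, with rank 2996 in replicate 1 and 967 in replicate 2, and its summit lay 4 bp before the end. That summit was also 91 bp inside the 5′ end of the gene Y116A8C.43, so it cannot be assigned to snr-1 alone. The pooled 5′ region had rank 27185, near the bottom of the list, although replicate 2 listed a 5′ region of rank 5584. At snr-7, which encodes SmG, both ends were weak in the pooled list, at ranks 12116 (5′) and 9493 (3′), although the 3′ region had rank 1145 in replicate 1.

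The 5′ region of snr-4, which encodes SmD2, had rank 1581 and its summit 356 bp upstream. It had rank 2506 in replicate 2 and no counterpart in replicate 1. That summit was 39 bp from the snRNA gene T11F9.15, so it cannot be assigned to snr-4 alone, and its 3′ region of rank 3615 was likewise without a counterpart in replicate 1. The snr-3 (SmD1) and snr-5 (SmF) genes had no pooled region in any segment.

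The 3 U5 genes are long, with a median of 9948 bp, and all had body and 3′ regions. At prp-8, which encodes the protein at the core of the catalytic centre, the 5′ region had a signal of 30.1 and rank 1633, with the summit 280 bp upstream. The overlapping regions had rank 9760 in replicate 1, with a summit 248 bp away and outside the 5′ window, and rank 1098 in replicate 2. The only replicate 1 region assigned to the 5′ end had rank 27000. The 3′ region of prp-8 had rank 2022, 101 bp past the end, with rank 20798 in replicate 1 and 877 in replicate 2. Both ends of prp-8 were therefore among the strongest 3000 pooled regions, and both ranked higher in replicate 2.

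The strongest body regions of prp-8 and snrp-200 coincided with small RNA genes in introns. The prp-8 body summit of rank 4404 lay on the snoRNA gene C50C3.13, and another, of rank 26066, was 14 bp from C50C3.14. The strongest region of snrp-200, which encodes the helicase that unwinds U4 from U6, had rank 3736 and its summit 3 bp from a tRNA gene. These regions and that of snr-4 made 4 of the 102 distinct pooled regions at splicing genes with a summit within 250 bp of a tRNA, snoRNA or snRNA gene, against 2.33% of all pooled regions.

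The 5′ region of snrp-200 had rank 4522, 198 bp upstream of the start. It had rank 854 in replicate 1 and no overlapping region in replicate 2. Its pooled summit also lay 76 bp before the 3′ end of pisy-1, a gene on the same strand. The long gene prp-6, which encodes a protein that bridges U5 to the U4/U6 particle, had no 5′ region, and its strongest region, of rank 5184, was in an intron. It had rank 12679 in replicate 1 and 10079 in replicate 2.

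The 3 SF3 genes had the weakest median rank of the 4 subgroups in the pooled list, over genes with a region. In any segment it was 12908 for SF3 genes, compared with 1581 for Sm, 1611.5 for SR and 3736 for U5 genes. Single genes of the other subgroups had weaker regions or none, and in replicate 1 only 1 SF3 gene had a region, of rank 4397. All 3 SF3 genes had a pooled 5′ region, with a median rank of 12908, compared with 10462 for all protein-coding genes with one. The ranks were 10637 at sap-49 (SF3B4 in vertebrates), 12908 at sftb-1 (SF3B1) and 21793 at prp-21, named after a yeast U2 protein. These 3 summits lay close to the start, at 25, 17 and 22 bp downstream, in a coding exon. No replicate 1 region was assigned to any of the 3 at the 5′ end, whereas replicate 2 listed ranks 5477, 9783 and 18298.

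The remaining genes had mostly weak regions. The strongest was in an intron of uaf-1, the large U2AF subunit that binds the pyrimidine tract, with rank 2412, rank 5458 in replicate 2 and no counterpart in replicate 1. The small subunit gene uaf-2 had its best region in an intron at rank 8020. At prp-19, which encodes a ubiquitin ligase of the spliceosome, the 3′ region had rank 4124, with rank 3062 in replicate 1 and 1252 in replicate 2, against rank 20930 at its 5′ end.

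Among the U4/U6 and U1 genes, prp-3 had a 3′ region of rank 5555, rnp-7 (U1-70K) a body region of rank 11042 and prp-31 a 5′ region of rank 10657. The regions overlapping that of rnp-7 had rank 8511 in replicate 1, with a summit 190 bp away, and rank 6101 in replicate 2. The prp-31 region had rank 2047 in replicate 2 and no counterpart in replicate 1.

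The snr-3, snr-5, rnp-2, rnp-3 and prp-4 genes had no pooled region in any segment, which places them below the end of a list of 30000 and does not show that polymerase is absent. The replicate lists still held some. Replicate 2 listed rank 5490 at the 3′ end of snr-3, and replicate 1 listed rank 15452 at the 5′ end of rnp-2, 12119 at the 3′ end of rnp-3 and 27679 at the 5′ end of prp-4. For snr-5 neither replicate listed a region.

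As for all protein-coding genes, the strongest pooled region of a splicing gene was often found in a single replicate. At the 5′ end it overlapped a region of both replicates in 11 of 23 genes (47.8%), against 39.4% of all protein-coding genes with a pooled 5′ region. At the 3′ end it was 13 of 22 (59.1%), against 44.2%, and in the body 5 of 15 (33.3%), against 30.8%. A counterpart in replicate 2 only was found at the 5′ end for 10 of 23 genes (43.5%), against 32.1% of all genes, and in the body for 10 of 15 (66.7%), against 34.5%. In replicate 1 only it was 2 of 23 at the 5′ end (8.70%), against 17.7%, and 0 of 15 in the body, against 21.4%. At the 3′ end it was 4 of 22 (18.2%) in each, against 16.3% of all genes for replicate 1 and 29.2% for replicate 2. Among SR genes, 7 of 8 best 5′ regions overlapped both replicates.

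**Figure D4:**
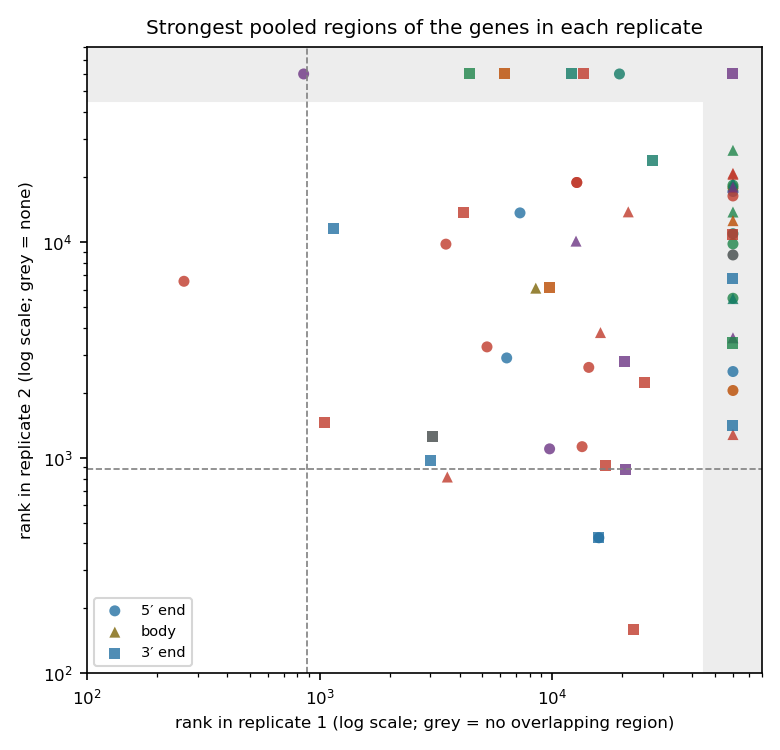
Rank in replicate 1 (x) against rank in replicate 2 (y), log scales, of the replicate region that overlaps the strongest pooled region of each gene and segment. Points in the grey bands had no overlapping region in that replicate, and dashed lines mark rank 887. The rsp-6 5′ region sits at the far left (261 and 6565) and its 3′ region at the bottom (22401 and 160), and no point lies below 887 in both.

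Promoter sequence gave few distinctions. In the 300 bases from 250 upstream to 50 downstream of the start, searched on both strands, TATAAA was present at 7 of 30 splicing genes (23.3%) and at 37.9% of 19973 nuclear protein-coding genes. A run TTTTTTTT was present at 9 of 30 (30.0%), against 32.5%, and GAGAGAGA at 0 of 30, against 3.54%. The median GC content was 33.2% at splicing genes and 34.3% at all of them. The absence of a motif says only that these letters are not in this window.

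Other spliceosome genes, a list of 52 written with earlier results known and of which 51 were found, gave similar shares. A pooled region was present in any segment at 43 of 51 (84.3%), against 46.3% of all protein-coding genes, and at the 5′ end at 36 of 51 (70.6%), against 29.0%. An optimal peak was present at 4 of 51 (7.84%), against 4.54%. They were lsm-7, of the ring on the U6 snRNA (rank 213 at the 3′ end and 696 at the 5′ end), ddx-23, which encodes an RNA helicase (763, 5′ end), spk-1, an SR protein kinase (744, 3′ end) and mag-1, of the exon junction complex (819, 3′ end). The peaks of lsm-7 were the most alike between replicates, at ranks 523 and 405 for the 3′ peak and 1159 and 513 for the 5′ peak in replicates 1 and 2. The ddx-23 peak had rank 135 in replicate 1 and 10547 in replicate 2. Each of these optimal peaks also had its summit within 500 bp of an end of another gene. None can therefore be assigned to the spliceosome gene alone.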

How the data were processed

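Whole young adult YL489 worms were profiled by AMA-1 ChIP-seq in 2 biological replicates. The authors deposited regions with a signal value (scale not given) and a −log10 q-value per the file format, on build ce11, which is WBcel235. Per the deposited readme, the lists were made from the replicate alignments and a further alignment file; the sources used here do not name the peak caller, the aligner or the threshold of the irreproducible discovery rate. Candidate regions were called per replicate and on pooled reads, per the file names. The lists hold no read counts, so depth is unknown and no counting interval could be given. The q-values tie at their highest value among strong regions and were not used for ranking. The deposited signal was used only to rank regions within a list. Lists on ce10 were not used.

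Genes came from Ensembl release 115, with RefSeq names and sequence for the same assembly. A pooled region was matched to a replicate by an overlap of at least 1 bp. The gene lists were chosen with earlier results of these data known. Full values were given for genes with an optimal peak, for the best-ranked gene of each subgroup and for genes with no pooled region; the others were named to account for every gene, after their values were seen. Assignment was tested on simulated data. Python 3.11.15, numpy 2.4.6, pandas 2.3.3 and matplotlib 3.10.9 were used. Alternatives changed the window, peak threshold, replicate, overlap rule, nearest end, small RNA distance and transcript ends.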

Additional observations from a re-analysis of the deposited data

How the results depend on the processing

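The counts of 2, 0 and 2 splicing genes with an optimal peak at the 5′ end, in the body and at the 3′ end rest on rsp-6 and snr-6. At the 5′ end the count was 1 with a window of 250 bp, 0 with the stronger 443 optimal peaks, 1 with each summit at its nearest gene end, 23 with all pooled regions and 9 with the strongest 3000. In the body it was 15 with all pooled regions and 2 with the strongest 3000. At the 3′ end it was 1 with the stronger 443 peaks, 1 with the nearest end, 22 with all pooled regions and 6 with the strongest 3000. With the 887 strongest regions of 1 replicate, the counts ranged from 1 to 2 (5′), 0 to 1 (body) and 1 to 3 (3′). Replicate 2 alone gave snr-6 (5′), rsp-3 (body) and prp-8, rsp-6 and snr-6 (3′), and replicate 1 alone gave rsp-6 and snrp-200 (5′) and rsp-3 (3′). A window of 1000 bp, any overlap of the called interval, peaks away from small RNA genes and the ends of every transcript left the counts at 2, 0 and 2. For the 25 genes with a pooled region, the best rank, as a percentage of its list, was compared with the spread between the replicates. A change at least as large as the spread was counted as a move. Any change was counted for snr-4, sap-49 and sftb-1, which have no value in replicate 1 and so no spread. Moves were counted for 3 genes with a window of 250 bp, 2 with 1000 bp and 1 with any overlap. Those without a spread were snr-4 (250 bp) and sftb-1 (1000 bp and any overlap). With replicate 2 alone the rank moved for 12 of 25 genes, among them snr-4, sap-49 and sftb-1. With replicate 1 alone it moved for 15 of the 22 genes with a value there. The cause was not tested. The cut at 3000 was chosen after seeing the data. No paired analysis was possible because there is only 1 group. With 2 replicates and no read counts, no error can be given for a rank.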

Other observations

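A further list, of splicing regulators, was written with earlier results known, and 23 of its 24 names were found. A pooled region lay in the body of 21 of 23 (91.3%), against 25.5% of all protein-coding genes, and in any segment at 22 of 23 (95.7%), against 46.3%. Gene length was not matched in this comparison. An optimal peak was present in any segment at 2 of 23 (8.70%), against 4.54% of all protein-coding genes. Both were at the 3′ end, where the share of all genes was 2.40%. The count of 2 is too small to set these shares apart. At hrpa-1, which encodes an hnRNP A1 family protein, the peak had rank 190, with rank 437 in replicate 1 and 589 in replicate 2, and its summit fell in the 3′ UTR, 48 bp upstream of the start of F42A6.6. At rbm-5, an RNA-binding protein gene, the peak had rank 415, with rank 139 in replicate 1 and 1228 in replicate 2, and its summit lay 67 bp past the 3′ end of rps-17, a ribosomal protein gene.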
